A study of Mus musculus with 24 samples.

Results

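In lung endothelial cells lacking Dnmt3a, 1327 regions away from gene ends carried H3K4me1 and H3K27ac, the pair of histone marks that defines an active enhancer, without any H3K4me1 peak in wild-type cells. They were chosen by merging the H3K4me1 peaks of both genotypes (1 bp of overlap sufficed) and keeping regions over 1000 bp from both ends of every protein-coding gene that overlapped no H3K4me3 peak of either genotype. Of the 59665 merged regions, 49071 were distal in this sense and 40866 also lacked H3K4me3. Among these 40866, H3K4me1 was listed in KO only at 10409 regions (25.5% of those compared), and the 1327 were the ones that also overlapped a KO H3K27ac peak. They are called gained active regions here, and the values of KO H3K4me1, WT H3K4me1, KO H3K27ac and H3K4me3 that chose them are given as a description only.

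The study mapped histone marks by ACT-seq, in which an antibody carries the Tn5 transposase to a mark so that the DNA there is cut and tagged, in endothelial cells sorted from mouse lung. The KO mice lacked Dnmt3a and the WT mice were its controls, and no strain, age, sex, promoter driving a deletion or other allele is named by the labels. The labels name 24 samples, 3 for each of 4 marks in each of 2 genotypes. The values analysed were 1 peak list per mark and genotype, so a difference is between 2 lists, no spread between samples entered, and no test between genotypes was possible.

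DNMT3A is a de novo DNA methyltransferase whose ADD domain binds histone H3 that is unmethylated at lysine 4, and methylation of that lysine prevents the binding. H3K4me1 marks enhancers that are primed or active, while H3K27ac is added by p300 and CBP at those that are active. DNA methylation and H3K4 methylation are known to occupy largely different regions of mammalian genomes, and DNA methylation itself was not measured here.

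On chromosomes 1 to 19 of mm10 there were 313065 peaks in the 8 lists. The KO lists held 48458 H3K4me1 and 44484 H3K27ac peaks, and the WT lists 49363 H3K4me1 and 81112 H3K27ac peaks. Of 15 endothelial marker genes, 13 had H3K27ac within 1000 bp of an end in KO and 14 in WT, and 13 had H3K4me3 there in KO and 12 in WT. H3K4me3 at the ends of 8 markers each marked 4 epithelial, 1 leukocyte and 2 mural or fibroblast genes in KO, and 1, 0 and 0 of these genes in WT. H3K27ac marked 4, 1 and 0 of them in KO, against 3, 1 and 2 in WT. The part of other cell types in the gained regions was not tested. The targeted gene had 13 H3K4me1 peaks over its body in KO and 12 in WT and neither held nor neighboured a gained active region. Peaks at the gene do not check the deletion, since the labels do not name the deleted part.

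A few gained active regions lay on an annotated start of transcription, and their sequences are shown because CG dinucleotides, the sites that DNMT3A methylates, can be counted in them. RefSeq promoter windows of GRCm38.p6 (mm10), from 250 bases before to 50 bases after a start, overlapped 18 of the 1327 regions in 19 windows, 6 of protein-coding genes and 13 of long noncoding RNAs (lncRNAs). The windows are written 5′ to 3′ on the strand of the gene, with each CG in capitals. The first belongs to Hdc, which encodes histidine decarboxylase, the enzyme that makes histamine (chr2:126618629-126618928, minus strand). The second belongs to Stat5b, which encodes a transcription factor of cytokine signalling (chr11:100822521-100822820, minus strand). The third belongs to Zbed3, a gene of a zinc-finger protein (chr13:95326517-95326816, plus strand). The fourth belongs to 4930432J09Rik, an lncRNA whose start lay on a gained region nearest to Ednrb (chr14:104027093-104027392, minus strand).
Hdc: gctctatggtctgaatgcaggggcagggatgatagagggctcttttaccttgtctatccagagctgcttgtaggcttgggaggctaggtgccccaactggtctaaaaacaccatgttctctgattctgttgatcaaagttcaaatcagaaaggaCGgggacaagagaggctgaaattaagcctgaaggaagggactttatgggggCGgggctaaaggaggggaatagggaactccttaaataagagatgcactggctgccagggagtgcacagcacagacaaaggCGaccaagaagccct
Stat5b: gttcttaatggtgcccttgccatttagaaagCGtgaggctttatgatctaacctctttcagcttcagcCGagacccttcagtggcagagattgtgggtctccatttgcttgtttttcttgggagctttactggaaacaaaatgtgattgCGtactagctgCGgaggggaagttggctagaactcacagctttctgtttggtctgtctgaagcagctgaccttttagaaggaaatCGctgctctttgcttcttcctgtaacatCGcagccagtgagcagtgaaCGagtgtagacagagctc
Zbed3: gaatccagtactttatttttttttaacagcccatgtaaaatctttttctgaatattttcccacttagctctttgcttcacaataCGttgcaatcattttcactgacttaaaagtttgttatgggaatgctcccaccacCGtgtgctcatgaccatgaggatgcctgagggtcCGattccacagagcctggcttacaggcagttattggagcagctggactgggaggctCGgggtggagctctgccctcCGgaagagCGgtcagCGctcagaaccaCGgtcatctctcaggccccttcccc
4930432J09Rik: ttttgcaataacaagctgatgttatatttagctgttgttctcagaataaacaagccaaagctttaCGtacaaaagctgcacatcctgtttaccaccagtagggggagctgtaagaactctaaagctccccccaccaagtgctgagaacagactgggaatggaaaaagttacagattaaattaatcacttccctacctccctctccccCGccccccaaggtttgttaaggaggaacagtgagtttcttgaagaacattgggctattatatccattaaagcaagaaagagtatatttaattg

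The Hdc window lay wholly inside a gained active region of 895 bp, chr2:126618457-126619351, and held 3 CG. The windows of Stat5b, Zbed3 and 4930432J09Rik held 7, 8 and 2 CG, with 115, 118 and 268 of their 300 bases inside a gained region. Over the 19 windows the median was 6 CG (quartiles 3 and 9), against 7 (3 and 21) over all 31396 windows and 24 (17 and 31) over the 9630 windows with H3K4me3 in both genotypes. The median was 7 CG in windows on lost active regions (H3K4me1 and H3K27ac in WT, no KO H3K4me1), 5 on regions with KO-only H3K4me1 without KO H3K27ac, and 4 on regions active in both genotypes. The gained regions exclude H3K4me3 by the rule, so nothing is read from the value of the H3K4me3 windows. On either strand, CAGGAA, a core of ETS factor sites, occurred in 8 of the 19 windows and in 30.3% of all windows. The E-box CANNTG occurred in 14 of the 19 and in 72.2% of all windows. A pair of the windows, both of the lncRNA Gm34629, overlapped almost wholly, and no microRNA hairpin of 1005 overlapped a gained region.

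H3K27ac at the gained active regions was in part already listed in WT. A WT H3K27ac peak overlapped 510 of the 1327 regions (38.4%, exact 95% binomial interval 35.8% to 41.1%, which covers counting error only), and 817 had H3K27ac in KO only. Presence was scored on the region itself, and at 39 of the 817 the KO H3K27ac peak reached a WT H3K27ac peak beside the region. A KO and a WT peak counted on the same region did not always overlap each other. Including those 39, the KO H3K27ac peak overlapped a WT one at 508 of the 1327 regions. Over all 40866 distal regions compared, H3K27ac was listed in KO only at 9.63%, in both genotypes at 29.9% and in WT only at 13.0%. Every gained active region has KO H3K27ac by the rule, so nothing is read from the contrast with these shares. At the 9082 regions that had KO-only H3K4me1 and no KO H3K27ac, called gained primed regions, 1280 had H3K27ac in WT (14.1%, 13.4% to 14.8%). These sets are split by KO H3K27ac, which the rule used, so nothing is read from the difference between their shares. The share with WT H3K27ac among gained active regions was 25.9% with the lists of each mark cut to equal numbers of widest peaks, 32.3% with peaks under 200 bp left out, and 66.7% (28 of 42 regions) with both KO peaks at least 500 bp wide.

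The opposite set, with H3K4me1 in WT only and H3K27ac in WT, held 1692 regions, called lost active regions. In KO, 595 of them had H3K27ac (35.2%, 32.9% to 37.5%), an interval that overlaps that of the gained active regions. The ratio of gained to lost active regions was 0.784, and its direction turned with the width of the peaks used. It was 1.15 with peaks under 200 bp left out, 1.34 with the lists cut to the same number of widest peaks and 2.21 with both peaks at least 500 bp wide. Of the 10409 regions with KO-only H3K4me1, 1327 overlapped H3K27ac in KO (12.7%, 12.1% to 13.4%) and 1790 in WT (17.2%, 16.5% to 17.9%). Regions that acquired an H3K4me1 peak in the KO list thus had the larger share with H3K27ac in WT. The WT H3K27ac list was also the longer one, and the direction was not particular to these regions. Of them, 12.3% carried H3K27ac of WT alone and 7.85% that of KO alone. The corresponding shares were 13.5% and 7.75% where H3K4me1 was WT-only, and 13.2% and 11.1% where both genotypes had H3K4me1. Over all distal regions compared they were 13.0% and 9.63%.

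**Figure D1:**
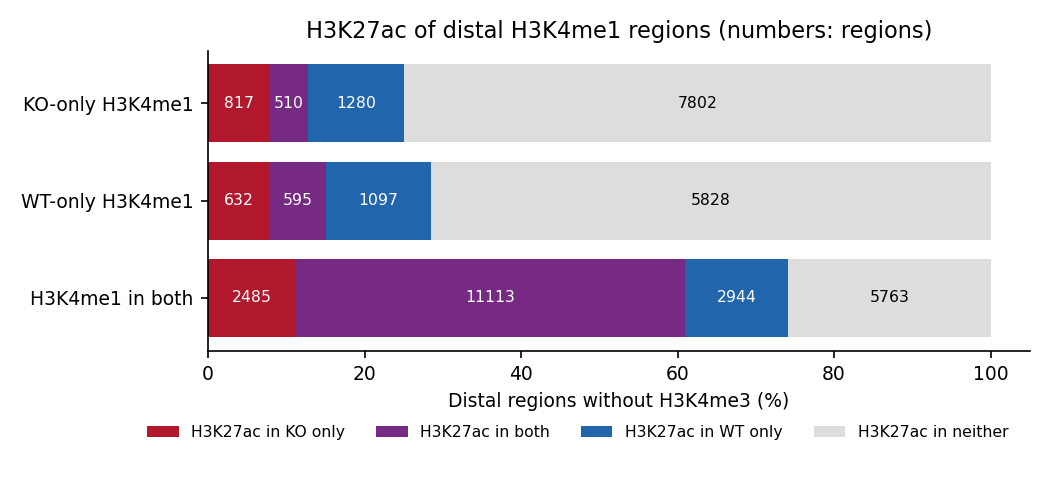
Distal regions without H3K4me3 by H3K4me1 (rows) and H3K27ac (colours), as a percentage of each row, with the number of regions printed in each segment. In the top row the red and purple segments are the 817 and 510 gained active regions, and in the bottom row 11113 regions had both marks in both genotypes.

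The gained active regions were narrow. Each consisted of 1 KO H3K4me1 peak, with a median width of 314 bp (quartiles 211 and 470, range 114 to 1719), and together they covered 482.669 kb. Regions active in both genotypes had KO H3K4me1 peaks with a median of 640 bp, gained primed regions 250 bp, and the WT peaks of lost active regions 247 bp. Their KO H3K27ac peaks had a median of 237 bp, against 434 bp at the 11113 regions active in both genotypes. One KO H3K27ac peak overlapped 1297 of the regions and 30 had 2 or more. The KO H3K27ac peaks covered a median of 59.4% of the region, and the centres of the 2 marks lay a median of 76 bp apart, while at 175 regions the marks shared under 100 bp. The share of KO-only H3K4me1 regions with KO H3K27ac was larger among wider regions, from 8.84% of those under 200 bp to 29.5% of those of 800 bp or more. The share of these regions with WT H3K27ac rose as well, from 12.8% to 34.5%. Overlap was scored at 1 bp, which wider regions meet more easily, and KO H3K27ac is part of the rule. Nothing is therefore read from these trends.

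**Figure D2:**
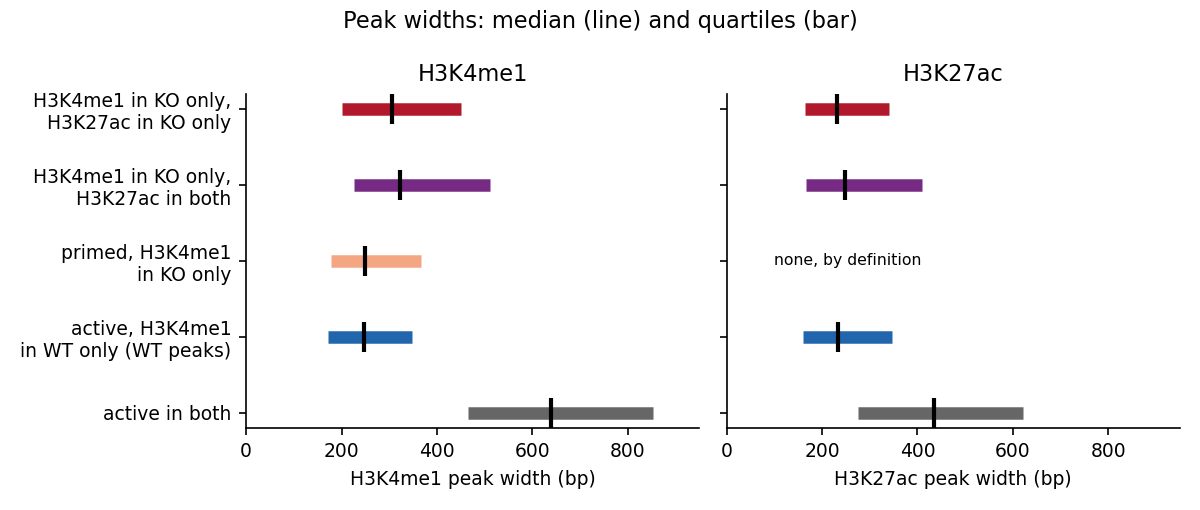
Widths in bp of H3K4me1 (left) and H3K27ac (right) peaks in 5 sets of distal regions, with the median as a line and the quartiles as a bar. The gained active regions with H3K27ac in KO only and in both had H3K4me1 medians of 305 and 322.5 bp, and those active in both genotypes 640 bp.

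Where H3K27ac was present in both genotypes, its width was shifted in neither direction over the gained active regions as a group, while single regions differed both ways. At the 482 gained active regions with 1 H3K27ac peak in each genotype, the KO peak was wider at 240 (49.8%), and the median ratio of KO to WT width was 0.993. At 9977 regions active in both genotypes with 1 peak each, the KO peak was wider at 46.7% and the median ratio was 0.969. These comparisons paired the KO and WT peaks by region, and the paired peaks did not have to overlap each other. The lists carry no peak heights, so the strength of acetylation was not compared.

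At a given width, a smaller share of the KO H3K27ac peaks was found in WT on gained active regions than on regions with H3K4me1 in both genotypes. Of the peaks of 500 bp or more, 101 of 148 on gained active regions overlapped a WT H3K27ac peak (68.2%, 60.1% to 75.6%), against 4478 of 4726 (94.8%, 94.1% to 95.4%) on KO-active regions with H3K4me1 in both. Between 500 and 799 bp the shares were 59.6% and 93.4%, and from 800 bp on they were 88.6% and 98.7%. Over all widths the shares were 38.1% and 78.5%. On lost active regions, 127 of 181 WT H3K27ac peaks of 500 bp or more overlapped a KO peak (70.2%, 62.9% to 76.7%). The share was 4718 of 5002 (94.3%, 93.6% to 94.9%) at WT-active regions with H3K4me1 in both. Under 200 bp, the share of KO peaks found in WT was 32.1% on gained active regions and 56.2% on regions with H3K4me1 in both. Over all KO H3K27ac peaks, wherever they lay, it was 32.4% under 200 bp and 95.2% between 500 and 799 bp. The sets of regions are split by H3K4me1 of the other genotype, which the rule used. Nothing is therefore read from the differences between these sets.

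**Figure D3:**
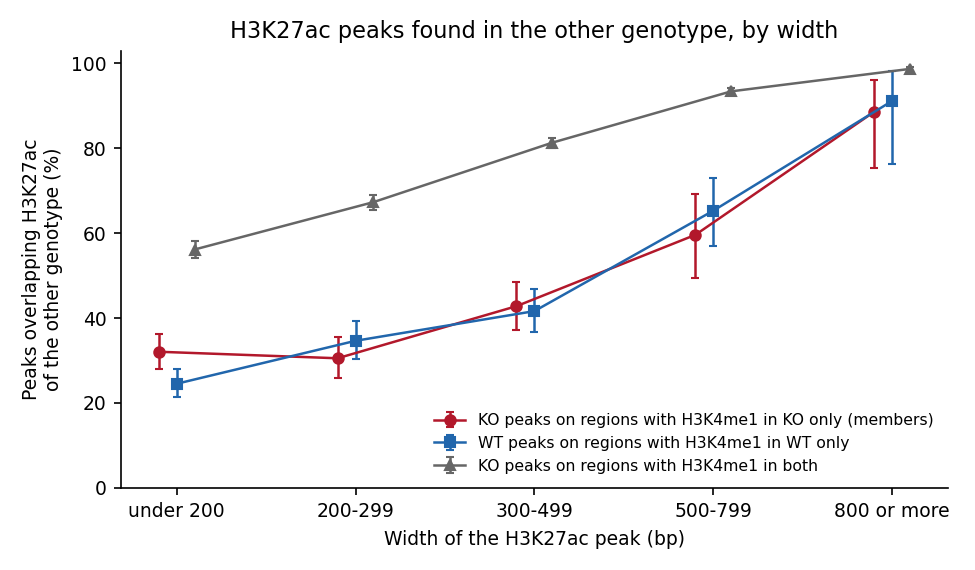
Share of H3K27ac peaks that overlapped an H3K27ac peak of the other genotype, by width class in bp, with exact 95% binomial intervals. Red (gained active regions) and grey (regions with H3K4me1 in both genotypes) are KO peaks compared with WT. Blue (lost active regions) is WT peaks compared with KO, so it has no matching grey line here. Red lies below grey in every width class, with 68.2% against 94.8% at 500 bp or more. The sets are split by H3K4me1 of the other genotype, which the rule used, so nothing is read from the difference.

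Most gained active regions were not the edge of a WT H3K4me1 peak. The nearest WT H3K4me1 peak lay a median of 3174 bp away (quartiles 714 and 10280.5), within 200 bp for 7.61%, within 1000 bp for 395 regions (29.8%, 27.3% to 32.3%) and within 25 kb for 90.4%. The gained primed regions lay at a similar median distance of 2981 bp, while lost active regions lay a median of 6813.5 bp from the nearest KO H3K4me1 peak. WT H3K4me1 lay within 5000 bp of 58.3% of the gained active regions (55.6% to 61.0%), and KO H3K4me1 within 5000 bp of 43.8% of the lost ones (41.4% to 46.2%). Neither WT H3K27ac nor WT H3K4me1 was listed within 500 bp of 575 gained active regions. Of the 817 regions with H3K27ac in KO only, 162 had a WT H3K27ac peak within 500 bp. The nearest other distal region was active in both genotypes for 423 (31.9%), a gained primed region for 281 (21.2%) and another gained active region for 87 (6.56%). Those classes made up 27.2%, 22.2% and 3.25% of all distal regions without H3K4me3. Lost active regions also had their own class nearest more often than its share (6.56% against 4.14%), as did gained primed regions (24.7% against 22.2%).

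**Figure D4:**
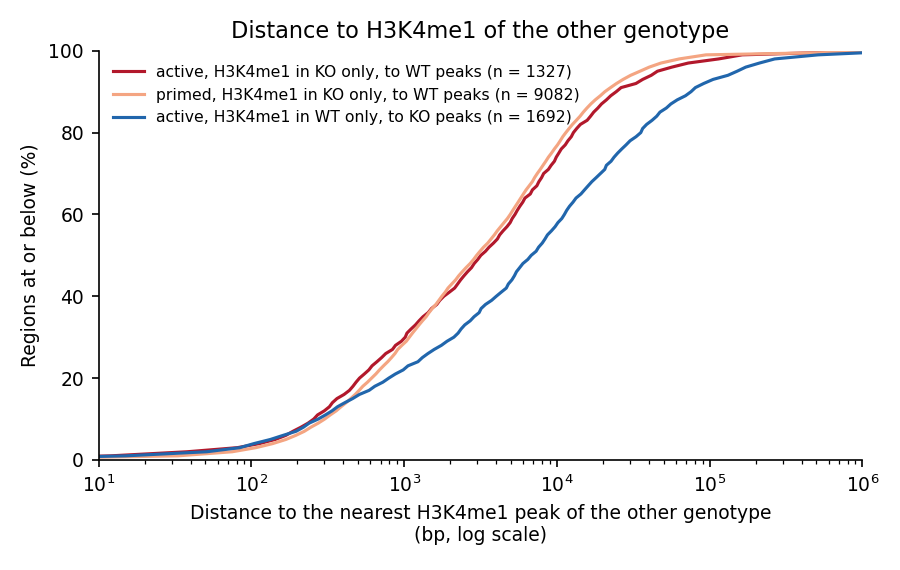
Cumulative share of regions by the distance to the nearest H3K4me1 peak of the other genotype, on a log axis in bp. The curves of gained active and gained primed regions run close together (medians 3174 and 2981 bp), and that of the lost active regions lies to their right (median 6813.5 bp).

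H3K27me3, the mark of Polycomb repression, was rare at the gained active regions in both genotypes. A KO H3K27me3 peak overlapped 29 regions (2.19%, 1.47% to 3.12%) and a WT peak 12 (0.904%, 0.468% to 1.57%). It was listed in KO only at 20 regions (1.51%), against 2.2% of all distal regions without H3K4me3, and in WT only at 3. Regions active in both genotypes had H3K27me3 at 6.94% in KO and 6.59% in WT, and lost active regions at 4.49% in KO and 4.37% in WT. Gained primed regions had it at 3.62% in KO and 2.14% in WT. Median region widths were 314 bp for gained active and 690 bp for active-in-both regions. They were 250 bp for gained primed and 247 bp for lost active regions, and the part of width in these shares was not tested. With regions that overlapped H3K4me3 kept in the set, the KO share was 5.03%, and with both peaks at least 500 bp wide it was 0%. The 5 widest gained regions with WT H3K27me3 lay in Prkag2, in Notch2, which encodes a Notch receptor, and in the developmental regulator gene Pax6, and near Bbs9 and the chemokine gene Cxcl12. Of these 5, the 410 bp region next to Cxcl12 also had H3K27ac in WT, as a peak of 485 bp beside 421 bp in KO.

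A larger share of the gained than of the lost active regions lay inside protein-coding genes. Of the 1327, 793 overlapped a gene body (59.8%, 57.1% to 62.4%), against 49.9% of lost active regions (47.5% to 52.4%), 66.5% of gained primed regions and 55.6% of regions active in both. The nearest gene end lay a median of 33391 bp away, and 38.0% of the regions were over 50 kb from every gene end. They made up between 2.42% (chromosome 17) and 4.32% (chromosome 13) of the distal regions without H3K4me3 of a chromosome.

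Regions outside gene bodies are named here by the nearest gene end, which does not show which gene they act on. Among the gained active regions with H3K27ac in both genotypes, the widest KO H3K4me1 peak, 1719 bp, lay in Tcf4, the gene of a basic helix-loop-helix transcription factor. It was followed by peaks of 1100 bp in Stard13, 1085 bp in the formin gene Diaph3, 1066 bp in Ptcd2, 1064 bp in the interferon-inducible GTPase gene Igtp and 1050 bp in Tcte2. At these 6 widest regions the KO H3K27ac peaks were only 109 to 370 bp wide. In Tcf4 the 142 bp KO H3K27ac peak lay at one edge of the region, and the 160 bp WT peak toward the other.

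Among the regions with H3K27ac in KO only, the widest H3K4me1 peak was 1660 bp, in Kank2 at chr9:21768431-21770090, with 135 bp of H3K27ac at its edge. Kank2 encodes an adaptor between integrins and the cytoskeleton. Next came 1097 bp in Akap6, 1077 bp near Diaph3, 1068 bp near Ttc17, 1067 bp near Cwc27 and 1047 bp in Mylk, which encodes myosin light-chain kinase. Their KO H3K27ac peaks were 154 to 476 bp wide, and the region near Ttc17 also had KO H3K27me3. Ranked by KO H3K27ac instead, the widest peak without WT H3K27ac on the region was 1675 bp in Gbp6, an interferon-induced guanylate-binding protein gene, where the H3K4me1 region was 417 bp. Others of this ranking were 1302 bp in Zp3r, 1179 bp in the collagen IV gene Col4a3, 1177 bp near Ube2v1, 1163 bp in Pam and 1050 bp near Nr2f1. Beside the H3K4me1 region, 4 of these 6 KO peaks overlapped a WT H3K27ac peak, of 1222 bp in Gbp6, 560 bp in Zp3r, 638 bp in Col4a3 and 797 bp near Ube2v1. The peaks in Pam and near Nr2f1 overlapped none. The H3K4me1 regions of this group other than the one near Nr2f1 lay 214 to 4677 bp from WT H3K4me1.

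Among the 42 regions whose KO H3K4me1 and H3K27ac peaks both reached 500 bp, 22 lay over 5000 bp from any WT H3K4me1 peak. The farthest, at 46667 bp, was a 756 bp region near Gbp8, another guanylate-binding protein gene, at chr5:105062400-105063155. Its H3K27ac was listed in both genotypes, with a peak of 1024 bp in KO and 1198 bp in WT. The second, 41868 bp away and nearest to Eif3h, had 674 bp of H3K4me1 and 785 bp of H3K27ac in KO and no WT H3K27ac on the region. The third was nearest to Ednrb, the endothelin receptor gene that marks aerocyte capillary cells of the lung, at chr14:104027125-104027730, 36011 bp from WT H3K4me1. It had a KO H3K27ac peak of 542 bp and a WT one of 341 bp, and it held the start of the lncRNA 4930432J09Rik printed above. The others were in Cdc73 and Eif2b3 and near Trio, and of these the one near Trio had H3K27ac in KO only.

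Most gained active regions stood alone. With neighbours within 25 kb joined, 1146 were single, and 181 (13.6%) lay in 77 runs of 2 and 9 runs of 3. The tightest run of 3 lay 228212 bp from the end of Nr2f1, the gene of an orphan nuclear receptor, where H3K4me1 peaks of 406, 129 and 268 bp spanned 1.239 kb at chr13:78427085-78428323. A single KO H3K27ac peak of 1050 bp covered all or part of each, and a KO H3K27me3 peak of 621 bp overlapped the first. No WT H3K4me1 peak lay within 4 kb of the centre of the run, and the only WT H3K27ac peak there was 123 bp wide and lay outside the 3 regions.

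The second run lay in Nrip1, which encodes a corepressor of nuclear receptors, over 7.391 kb at chr16:76294506-76301896. Its H3K4me1 peaks were 406, 752 and 625 bp wide in KO, each with its own H3K27ac peak, of 392, 220 and 319 bp. No WT peak of any of the 4 marks was listed within 5195 bp of its centre. The remaining runs that the rule for named genes selects lay in Prdm2 (8.758 kb), Shroom3 (10.702 kb) and Rin2 (12.917 kb), with 2, 1 and 0 of their 3 regions lacking WT H3K27ac.

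At single regions, the pattern ranged from KO marks alone to a difference in H3K4me1 alone. In Jag1, a Notch ligand gene expressed in arterial endothelium, 824 bp of H3K4me1 and 534 bp of H3K27ac in KO stood against no WT peak of any mark within 4 kb of the centre. At Hdc, the region that holds the printed start had 814 bp of H3K27ac in KO and 180 bp in WT, and no WT H3K4me1 closer than 10329 bp. The 6 loci drawn were chosen after their values were seen.

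**Figure D5:**
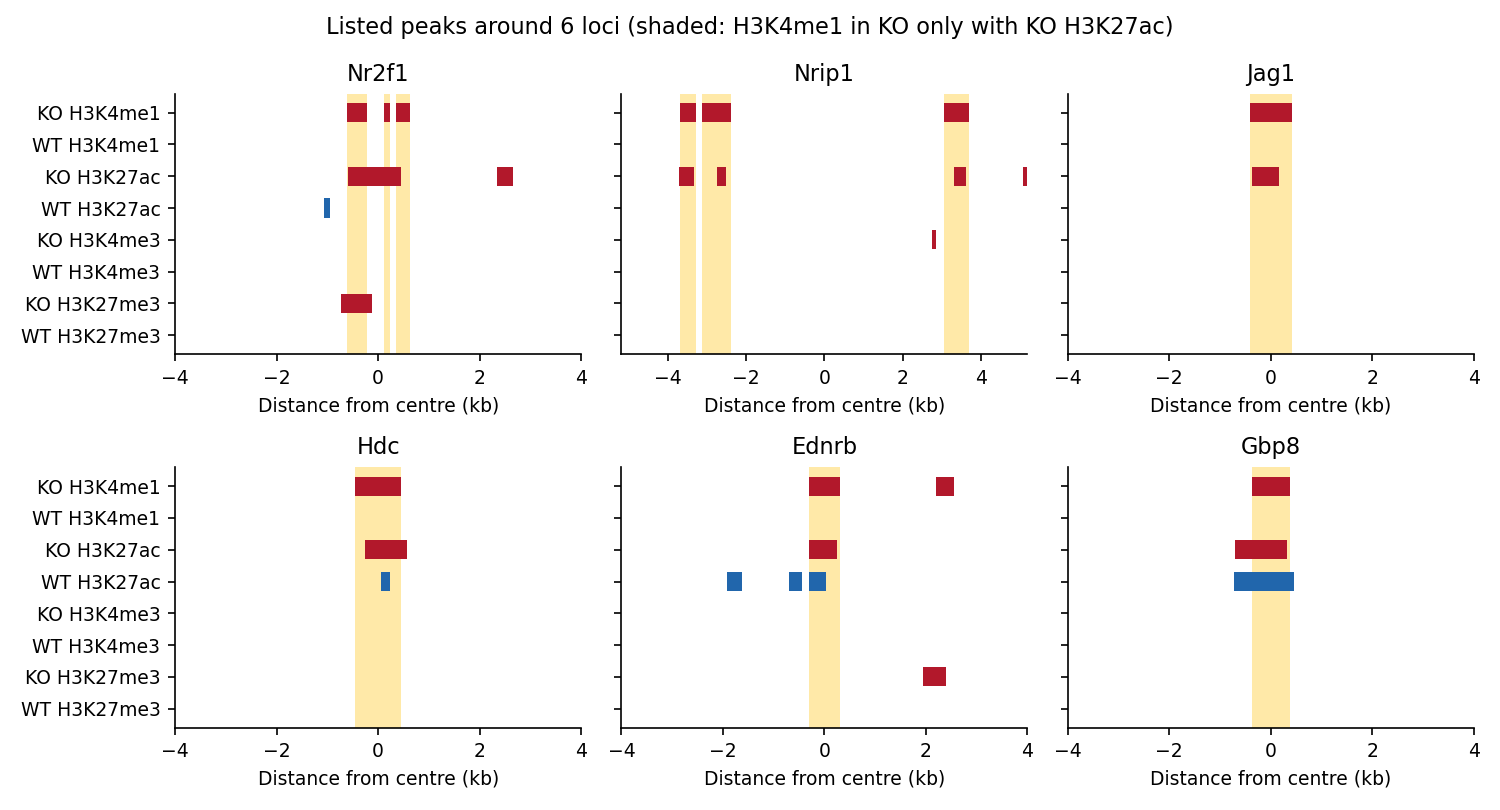
Listed peaks of the 4 marks in KO (red) and WT (blue) around 6 loci, by distance in kb from the centre of the gained active region or run (shaded). Nrip1 and Jag1 show KO peaks only, Gbp8 shows H3K27ac of similar width in both genotypes (1024 bp in KO and 1198 bp in WT), and H3K4me1 is absent from WT at each of the 6.

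Of the 20665 protein-coding genes, 664 held a gained active region and 107 held 2 or more. These 664 genes were long, with a median of 131.096 kb against 17.491 kb over all protein-coding genes. The 2754 genes that held a region active in both genotypes were also long, with a median of 89.1755 kb. Shroom3, which encodes an actin-binding regulator of cell shape, Maml2, a coactivator gene of Notch signalling, and Ptprg, a receptor-type tyrosine phosphatase gene, held 5 each. Arhgap28, Hecw2, Maml3, Ryr2 and Hdac9 were among those that held 4. Maml2 and Ptprg also held 15 and 18 regions active in both genotypes, whereas Ryr2, the gene of a calcium-release channel, held 1 beside its 4 gained regions.

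Of 364 genes in 20 lists of endothelial, signalling and other cell-type genes, 58 (15.9%) held or were nearest to a gained active region, against 5.11% of all protein-coding genes. List genes were longer than the average gene (median 28.3675 kb), and restricted to genes that held a region active in both genotypes, 29 of 116 list genes (25%) and 474 of 2754 genes in all (17.2%) held a gained one. The 89 different regions at list genes had H3K27ac in KO only in 50 cases (56.2%, 45.3% to 66.7%). Among the lists for cells outside the endothelium, 0 of 18 lung epithelial, 1 of 18 leukocyte (Lcp1) and 1 of 16 mural and fibroblast genes (Pdgfra) had one.

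Of 30 pan-endothelial genes, 8 held or neighboured gained active regions, namely the transcription factor genes Elk3, Erg, Ets1 and Sox17, the VEGF receptor genes Flt1 and Kdr, the sphingosine-1-phosphate receptor gene S1pr1, and Emcn, which encodes the sialoglycoprotein endomucin. Emcn held 2, of which the 565 bp region at chr3:137395741-137396305 had H3K27ac over 503 bp in KO and 120 bp in WT. Erg, a master regulator of endothelial identity, held 1 of 563 bp with H3K27ac of 200 bp in KO and 256 bp in WT. Ets1 named 4, and the 729 bp one inside the gene lay 222 bp from WT H3K4me1. The 825 bp region near Sox17, at chr1:4461812-4462636, had separate H3K27ac peaks of 225 bp in KO and 322 bp in WT. At Flt1 and Kdr the regions of 373 and 229 bp had H3K27ac in KO only.

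Genes of the capillary and arterial lists were also among those touched. Of 15 aerocyte genes 6 held or neighboured a gained region, against 3 of 16 general capillary genes, 6 of 19 arterial, 0 of 14 venous and 2 of 14 lymphatic genes. The exact intervals, 16.3% to 67.7% for aerocyte and 0% to 23.2% for venous genes, overlap. The aerocyte genes were Chst1, Ednrb, Igfbp7, Kdr, Kitl and Nrp1, and except at Ednrb their regions had H3K27ac in KO only. The arterial genes were Efnb2, Gja5, Jag1, Notch4, Nrp1 and Sox17. Cxcl12, a general capillary gene of the chemokine that binds CXCR4, had 3 gained regions, and 2 of them had KO H3K27me3 as well.

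Of 23 Notch pathway genes, 6 were touched and held 11 gained regions in their bodies. Maml2 held 5, of which the 976 bp one at chr9:13560098-13561073 had H3K27ac of 176 bp in KO and 247 bp in WT, and 3 had H3K27ac in KO only. Maml3 held 4, 3 of them with H3K27ac in both genotypes. The ligand gene Jag1 and the receptor gene Notch2 held 1 each, with H3K27ac in KO only. A region of 526 bp lay 4715 bp from an end of Notch4, and one of 329 bp lay 36438 bp from Nrarp, which encodes a feedback inhibitor of Notch signalling. At Nrarp the H3K27ac peak was 771 bp in KO and 233 bp in WT.

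Of the VEGF and angiopoietin list 3 of 17 genes were touched, of the BMP and TGF-beta list 3 of 32 and of the Wnt list 5 of 25. Of the shear stress and vascular tone list 6 of 22 genes were touched, of the guidance list 6 of 25, of the junction and cytoskeleton list 5 of 27 and of the endothelial-to-mesenchymal transition list 4 of 18. The inflammation list had 1 of 24 (Cebpb), the immediate early list 2 of 18 (Bach1 and Jun), and the list of DNA methylation and H3K4 enzymes 1 of 22 (Mbd2, a methyl-CpG binding protein gene). In the shear stress, guidance and junction lists the widest H3K4me1 peaks were 844 bp in the junction gene Cgnl1 and 735 bp in Mef2c, a transcription factor gene, both with 181 bp of H3K27ac in KO only. Zeb2, a repressor gene of epithelial identity, held regions of 383 and 527 bp with KO-only H3K27ac peaks of 623 and 267 bp. Wnt7b was neighboured by a 523 bp region with H3K27ac of 520 bp in KO and 226 bp in WT.

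The ends of the 1035 genes that named a gained active region were mostly marked in both genotypes. H3K27ac lay within 1000 bp of an end in both genotypes for 66.2% of them, against 45.7% of all protein-coding genes, and H3K4me3 for 66.3%, against 45.4%. Genes that named other distal regions also lay above all genes. For those naming lost active, gained primed and active-in-both regions the shares were 60.4%, 64.4% and 62.2% for H3K27ac. For H3K4me3 they were 60.4%, 64.3% and 60.8%. H3K27ac was at an end in KO only for 25 (2.42%, 1.57% to 3.55%), beside 2.01% of all genes, and in WT only for 79 (7.63%), beside 5.88% of all genes. H3K4me3 was at an end in KO only for 54 (5.22%, 3.94% to 6.75%), beside 6.9% of all genes. The KO-only share for H3K27ac lay near that of all protein-coding genes, and the value over all genes for H3K4me3 lay just above the interval. For KO-only H3K4me3 the genes that named lost active, gained primed and active-in-both regions had 6.92%, 7.83% and 7.76%. Those with KO-only H3K27ac at an end and the widest gained regions were Qser1 (898 bp), Hdc (895 bp), Ets1 (729 bp), Maml3 (608 and 570 bp) and Angptl4 (527 bp), a secreted regulator of lipoprotein lipase. With KO-only H3K4me3 they were Kank2, Mylk, Kctd1, Fggy, Maml3 and Rapgef5, and Maml3 thus had both marks at an end in KO only.

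Near the limits of the rule, the gained region closest to a gene end lay 1006 bp from Crtc3, and the nearest excluded one 972 bp from Fxyd5. WT H3K4me1 lay within 10 bp of 13 gained active regions and within 50 bp of 29. The KO and WT H3K4me1 peaks overlapped by at most 10 bp at 7 KO-active regions that were not included, and by at most 50 bp at 34. The KO H3K27ac overlap was at most 10 bp at 14 included regions, and 203 further regions met all other conditions but overlapped H3K4me3.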

How the data were processed

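The authors deposited 1 peak list per mark and genotype. Its values are positions and widths in bp (unit other), with no score, height or p per peak. Per the submitters' processing notes, the tools were MACS2 (2.1.2.1), Bowtie2 (2.2.6), deepTools (3.1.1), SAMtools, cutadapt (1.14) and Trim Galore (0.4.4), and the builds were mm10 and, for yeast, R64. The peak threshold and any pooling of samples before peaks were called are not given in the labels, and the depth per sample is unknown. H3K9me3 is not analysed here.

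The comparisons ran in Python 3.11.15 with scipy 1.17.1, pandas 2.3.3, numpy 2.4.6 and, for the plots, matplotlib 3.10.9. Peaks overlapping by at least 1 bp were merged or counted as shared. The gene table, from GRCm38.p6, has 20665 protein-coding genes on these chromosomes and gives both ends but no strand or exons. Sequences are RefSeq's promoter windows, a table that does not hold every gene. Shares carry exact Clopper-Pearson 95% intervals, which treat regions as independent. The steps were tested on simulated lists.

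Named genes followed a rule that took the 6 widest H3K4me1 peaks with and without WT H3K27ac, the 6 widest H3K27ac peaks without it and the 6 regions farthest from WT H3K4me1 with both peaks of at least 500 bp. It added the 8 genes with most regions, touched list genes, the 5 runs with most regions, genes with KO-only H3K27ac or H3K4me3 at an end (6 each) and the 5 widest regions with WT H3K27me3. Among genes, symbols of the Gm and Rik series were skipped, and not every gene under the rule is reported. Members and lists were chosen with earlier results of these data known. The planned base composition and motifs of all regions were not run, since a genome of the build was not used here. The alternatives tried changed the overlap, the distance to WT H3K4me1 and to gene ends, the H3K4me3 condition and the peak widths used.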

Additional observations from a re-analysis of the deposited data

How the results depend on the processing

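With 1 list per group, leaving out a sample could not be run. No paired analysis was possible because the lists hold no values per sample and no result comes from a test. Of 6 results recomputed under 8 alternatives, the ratio of gained to lost active regions (0.784) reversed to 1.15 with peaks under 200 bp left out, 1.34 with lists cut to equal numbers of widest peaks and 2.21 with both peaks at least 500 bp. It was 0.855 with 100 bp of overlap required, 0.650 with WT H3K4me1 within 2000 bp counted as present and 0.662 with H3K4me3 regions kept. The number of gained active regions (1327) moved to 778 under the 2000 bp setting and to 42 with both peaks at least 500 bp. The share with WT H3K27ac (38.4%) was 32.3% without peaks under 200 bp, 25.9% with lists of equal numbers, 42.8% with H3K4me3 regions kept and 66.7% with both peaks at least 500 bp. The share within 1000 bp of WT H3K4me1 (29.8%) was 35.1% with 100 bp of overlap, 23.3% without peaks under 200 bp and 23.8% with both peaks at least 500 bp. It was 12.4% with WT peaks within 500 bp counted as present and 0% at 2000 bp, by construction. The share with KO H3K27me3 (2.19%) was 5.03% with H3K4me3 regions kept and 0% with both peaks at least 500 bp. The share inside genes (59.8%) moved under 1 alternative, to 54.8% with both peaks at least 500 bp. The causes of the shifts other than these by construction were not tested.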
